A study of Rattus norvegicus with 5 samples.

Results

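The genes described here are 10 genes of the amino acid stress response and of serine synthesis, known for their link to the transcription factor ATF4. They are the regulators Atf4, Atf3, Ddit3 and Trib3, the response genes Asns, Stc2 and Herpud1, and the serine pathway enzymes Phgdh, Psat1 and Psph. They were read in rat hepatocellular carcinoma lines and rat liver from the probes annotated with these symbols, which were 12 probes of 9 genes, among 33849 discovery probes that name 12198 genes. Phgdh was not analysed here, since no probe carried its symbol or gene number in the annotation used. The genes were chosen by their known link to ATF4, and Stc2 was also selected on its array signals in the metastatic classes of lines. For that reason the class difference of these genes is given as a description with no test.

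Each of 5 samples was hybridised to 1 single-colour CodeLink slide. Of the 4 carcinoma lines, the labels class C5F and C6 as low and N1 and L2 as high in metastasis. All came from male F344 rats of 31 weeks, which had received N-nitrosomorpholine and diethylnitrosamine. The reference was the liver of 1 untreated male SD rat of 50 weeks. The liver thus differs from the lines in strain, age, carcinogen and culture as well as in tumour origin, and these cannot be told apart. Each class thus has 2 lines as replicates and the liver none, and the number of arrays limits every value below.

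When amino acids run short, uncharged transfer RNA activates the kinase GCN2, and when proteins misfold in the endoplasmic reticulum (ER), the kinase PERK is activated. Both phosphorylate the initiation factor eIF2, which lowers general translation while favouring translation of the Atf4 messenger RNA, so the ATF4 protein can change without its messenger. ATF4 then binds composite C/EBP-ATF response elements (CARE) in genes for amino acid import, transfer RNA charging, asparagine synthesis and serine synthesis. Serine is made from the glycolytic intermediate 3-phosphoglycerate by PHGDH, PSAT1 and PSPH in turn, whereas liver also degrades serine to make glucose.

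Between 30.6% and 39.2% of discovery probes were above background on each array, the most in C5F, whose array median was also the highest (12.7, against 6.53 to 8.46 on the others). Hepatocyte markers were above background in liver for all 6 usable probes of 7, with a summed signal of 32700, and in C5F for 4 of 6, with 1960. They were all near background in C6, N1 and L2 (0 of 7 each), with sums of 18.8 to 24.2, so Alb, Ttr, Tf and the rest do not mark these lines as hepatocytes. Liver also held macrophage markers (5 of 6, sum 3930, against 57.7 to 86.3 in the lines), sinusoidal endothelial markers (3 of 3, sum 289, against 24.4 to 29.0) and stellate cell markers (3 of 5, sum 519, against 46.0 to 284). In every line 2 of 6 macrophage markers were above background, Clec4f with Cd163 or Cd68. Of the stellate cell markers, 2 were above background in C5F and 1 in each of C6, N1 and L2. Markers of dividing cells summed to 153 in liver and to 1530 to 1970 in the lines. The cholangiocyte marker Krt19 was above background in C5F, C6 and L2 and had no usable spot in liver or N1, where the cholangiocyte sums of 53.4 and 8.6 therefore leave it out (580 to 2290 in the others). Another cholangiocyte marker, Epcam, was above background in liver and C5F and near background in L2, with no usable spot in C6 or N1. All of these sums except the macrophage ones cover partly different probes, as irregular spots differ between arrays. Apoa1 had no usable spot in liver, and Cyp2e1 had none in C5F. Pecam1 had none in liver and was the only endothelial marker above background in each line. The part of this cell makeup in the differences from liver was not tested, and in bulk RNA fewer cells of a type and less RNA per cell cannot be told apart.

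**Figure D1:**
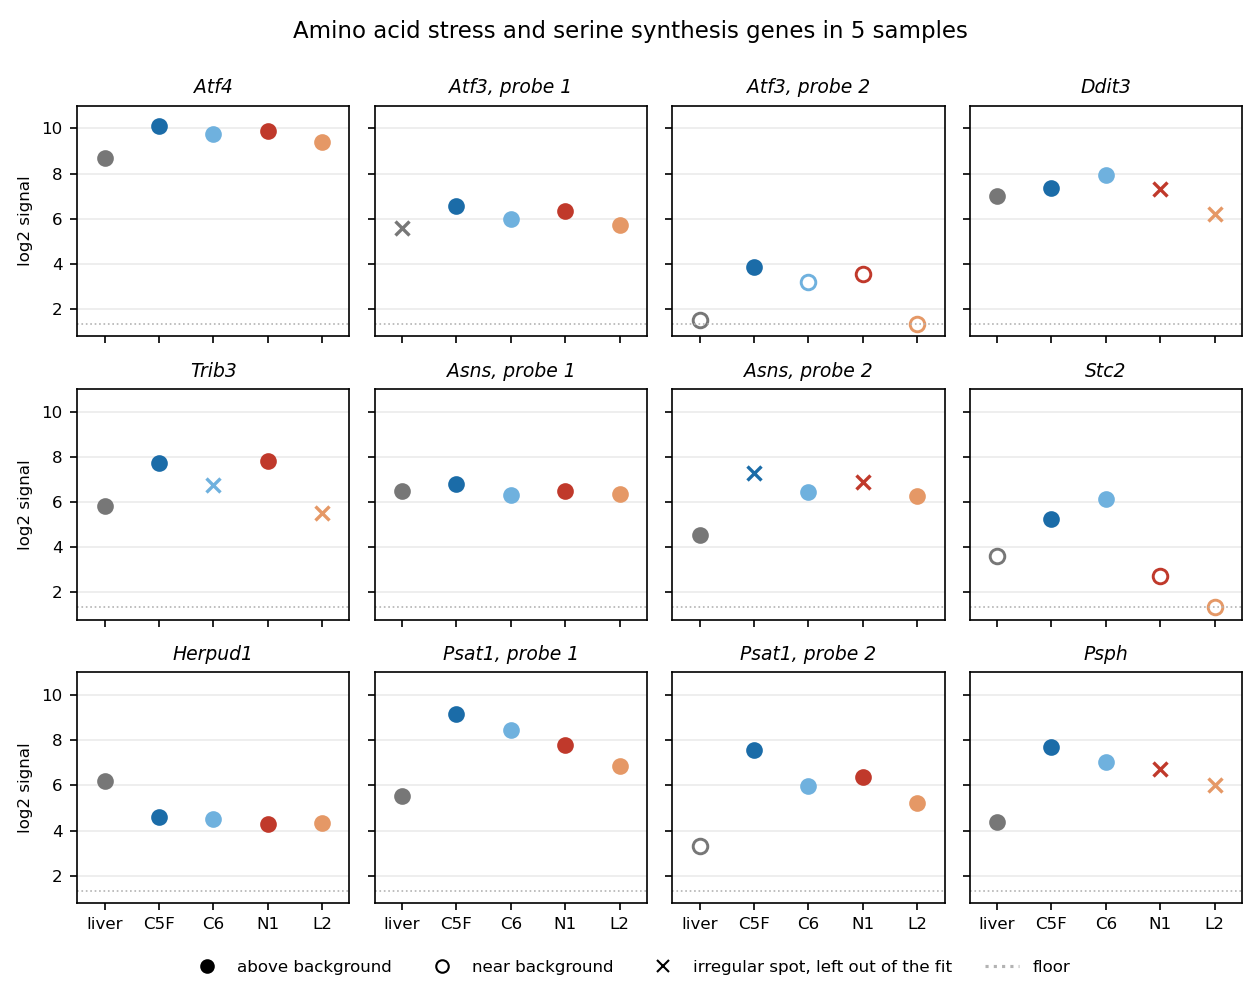
Log2 signal (vertical axis) of each of the 12 probes in liver, C5F, C6, N1 and L2 (horizontal axis, 1 array each). Filled points are spots above background, open points near background, crosses irregular spots shown at their value with irregular spots kept, and the dotted line the floor. Both Psat1 probes lie above liver in all 4 lines, Herpud1 lies below it in all 4, and Stc2 is above background in C5F and C6 alone.

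Of the regulators, Atf4, the basic leucine zipper factor at the head of the response, was bright in every sample. Liver read 8.68 (log2 signal, as for all levels below), and C5F, C6, N1 and L2 read 10.12, 9.75, 9.87 and 9.42 in turn. Every line thus stood above liver, by 1.67-fold in L2 to 2.72-fold in C5F. The mean difference was 1.12 ± 0.31 in log2 units (SE; 4 lines, 1 liver) and did not pass the limma test (adjusted p = 0.0949). Among the lines Atf4 spanned only 0.70, less than the median span of 0.85 over 9352 probes measured in all 4 lines.

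Atf3, a stress-induced repressor of the same family, was read by 2 probes. The brighter probe gave 6.55, 5.97, 6.36 and 5.73 in C5F, C6, N1 and L2, and its liver spot was irregular in shape and left out. The dimmer probe was too dim to be kept, because only its C5F spot, at 3.88, was above background. The lines spanned 0.82 on the brighter probe, close to the array-wide median. With irregular spots kept, the brighter probe read 5.58 in liver, below all 4 lines.

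Ddit3, which encodes the pro-apoptotic factor CHOP, had usable spots in 3 samples, with 7.0 in liver, 7.36 in C5F and 7.93 in C6. The N1 and L2 spots were irregular, so no class difference could be fitted. Kept in, they read 7.33 and 6.22, which would place N1 above liver at 6.89 and L2 below it. Trib3, a pseudokinase induced by ATF4 and CHOP that feeds back on ATF4, stood at 5.81 in liver, 7.71 in C5F and 7.81 in N1. These lines were thus 3.74-fold and 4.01-fold above liver, with no test, as 1 line per class leaves no residual spread. The irregular Trib3 spots, kept in, read 6.77 in C6 and 5.52 in L2, so that L2 lay within 0.03 of liver. Of the 4 regulators, Ddit3 and Trib3 therefore rest on incomplete sets of lines.

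Asns, asparagine synthetase, is among the best-known ATF4 targets, and its 2 probes disagreed. The brighter probe was level, with 6.51 in liver and 6.82, 6.29, 6.50 and 6.34 in C5F, C6, N1 and L2. Its difference of lines from liver was −0.02 ± 0.30 (limma adjusted p = 0.961), and it took either sign between −0.16 and 0.32 over the alternatives. The dimmer probe stood at 4.54 in liver, 6.43 in C6 and 6.28 in L2, which is 3.68-fold and 3.34-fold above liver. The spots of that probe in C5F and N1 were irregular, and kept in they read 7.27 and 6.87, again above liver at 4.56. Both probes carry the same transcript accession, and which of them follows the transcript was not tested.

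Herpud1, an ER membrane protein that helps remove misfolded proteins and is induced by ER stress, went the other way. Liver read 6.19, against 4.61, 4.49, 4.31 and 4.34 for C5F, C6, N1 and L2. Liver did not overlap the lines, and the lines lay within 0.29 of each other. Herpud1 fell in the lines by 1.75 ± 0.20 in log2 units, a 3.37-fold difference (limma adjusted p = 0.0233, n = 4 lines against 1 liver, lower in all 4). The call was lost when arrays were scaled to the median of their probes above background (−1.36, adjusted p = 0.0615) and when any 1 line was left out, although the difference stayed at −1.76 to −1.68 (adjusted p from 0.0563 to 0.0835). With an offset of 50 added to every signal the difference shrank to −0.78 and the call stood (adjusted p = 0.0185). The spread behind the test is that of the lines, since the liver has no replicate.

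Herpud1 was the 1 member probe called among the 6 probes, of 5 genes, that could be tested against liver. Over the whole array 9.38% of 11949 tested probes were lower in the lines and 9.01% higher, 18.4% in all. Among the member probes 0 were called higher by limma, while 3 were higher at an unadjusted p under 0.05, namely Atf4 and both Psat1 probes. All 4 lines lay above liver for 3 of the 6 probes, where 37.3% of the probes measured in all 5 samples do, and below it for 1, where 34.5% do. The median difference over all tested probes was 0.15.

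**Figure D2:**
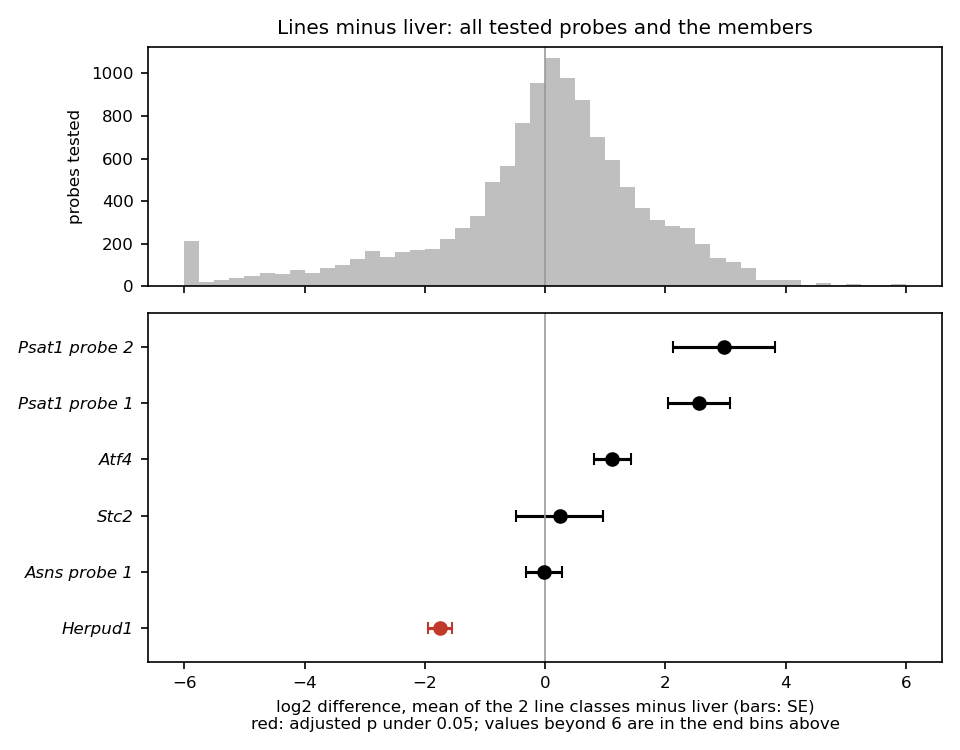
Upper panel, number of tested probes by log2 difference of the lines from liver (bins of 0.25, extreme values gathered in the end bins). Lower panel, the same difference with its SE for the 6 member probes tested. Herpud1, in red, is the member that passed the limma test, at −1.75, and both Psat1 probes are the highest, at 2.56 and 2.98.

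The promoter windows of Trib3 and Herpud1 held the element bound by ATF4 and are printed for that reason. CARE was searched as TGATGNAAN on both strands, from 250 bases before to 50 bases after the RefSeq transcription start. It occurred in 2 of the 9 member genes with a window, Trib3 and Herpud1, and in 3.97% of 33469 windows. The ER stress response element ERSE occurred in 0 of 9 and in 0.0657% of windows. TGACGTGN and TGACGTCA occurred in 0 of 9, and in 1.79% and 1.83% of windows. ERSE-II, a shorter element of the same kind, was added after the sequences had been read, and it occurred in Herpud1 and in 0.0508% of windows. Below are the 250 bases before the start on the coding strand, which is the minus strand for both genes (RefSeq, build GRCr8), with motif letters in capitals. In Trib3 (chr3:161275534-161275783) the capitals are CARE read on the opposite strand, from 22 to 14 bases before the start. In Herpud1 (chr19:10614708-10614957) the first run is CARE on the opposite strand, from 185 to 177 bases before the start, and the second run is ERSE-II, from 124 to 114 bases.
Trib3: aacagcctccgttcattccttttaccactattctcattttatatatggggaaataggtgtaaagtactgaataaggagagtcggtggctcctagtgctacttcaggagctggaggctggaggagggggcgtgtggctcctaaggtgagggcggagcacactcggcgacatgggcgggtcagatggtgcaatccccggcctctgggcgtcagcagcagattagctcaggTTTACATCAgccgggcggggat
Herpud1: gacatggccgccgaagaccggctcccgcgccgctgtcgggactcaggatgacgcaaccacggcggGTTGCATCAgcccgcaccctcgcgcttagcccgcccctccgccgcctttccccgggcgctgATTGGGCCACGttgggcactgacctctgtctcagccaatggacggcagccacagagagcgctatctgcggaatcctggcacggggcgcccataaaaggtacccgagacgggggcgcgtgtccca
These genes stood on opposite sides of liver in the lines, Trib3 above it in C5F and N1 and Herpud1 below it in all 4. A match of letters is a description, not a site that was shown to be bound.

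Of the serine enzymes, Psat1, the transaminase of the middle step, had the highest differences of the members tested against liver. The brighter probe gave 5.51 in liver, against 9.15, 8.47, 7.77 and 6.87 in C5F, C6, N1 and L2. The lines were thus 12.5-fold, 7.80-fold, 4.80-fold and 2.58-fold above liver in that order, and no line overlapped it. The dimmer probe was near background in liver and gave 7.57, 5.99, 6.38 and 5.22 in the same lines, a mean of at least 5.34-fold above liver. The probes placed the lines in the same order except for C6 and N1, which they ranked oppositely, so these neighbours are not separated. The differences from liver were 2.56 ± 0.52 (limma adjusted p = 0.0553) and 2.98 ± 0.85 (adjusted p = 0.0988). The brighter probe passed in 3 of its alternatives, with adjusted p from 0.0433 to 0.14 over all of them.

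Psph, the phosphatase of the last step, had 4.36 in liver, 7.71 in C5F and 7.04 in C6. C5F and C6 were thus 10.2-fold and 6.43-fold above liver. The N1 and L2 spots were irregular and left no value for the high-metastatic class. Kept in, they read 6.74 and 6.02, against 7.74 in C5F, 7.07 in C6 and 4.37 in liver, the order of lines that the brighter Psat1 probe gave.

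Stc2, stanniocalcin 2, a secreted glycoprotein induced by ER stress and amino acid shortage, was the member chosen for its class difference. C5F read 5.23 and C6 read 6.13, both above background. It was near background at 2.73 in N1, 1.34 in L2 (the floor) and 3.62 in liver. The low-metastatic lines did not overlap the high-metastatic lines, and were at least 4.25-fold brighter, the dim spots being set to the lowest signal called above background on their array. Against liver C5F was at least 2.57-fold and C6 at least 4.79-fold brighter. The fitted class difference was −3.65 ± 0.65 (high minus low, SE, n = 2 lines per class). That value depends on the floor, and became −0.92 with an offset of 50, −4.35 without N1 and −2.94 without L2.

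**Figure D3:**
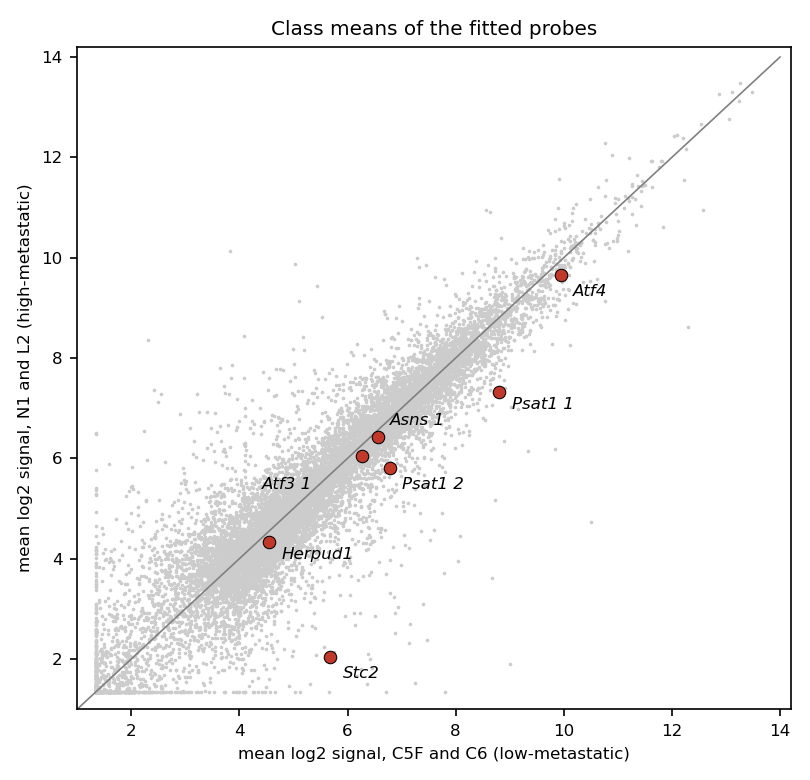
Mean log2 signal of each fitted probe in the low-metastatic lines C5F and C6 (horizontal axis) and in the high-metastatic lines N1 and L2 (vertical axis). Grey points are all 13741 probes, red points the 7 member probes with a fit, numbered where a gene has 2 probes, and the diagonal marks equal means. All 7 lie on or below the diagonal, with Stc2 farthest from it.

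Between the classes, limma called 0% of 13741 probes over the whole array (lowest adjusted p 0.489), with 1005 probes, or 7.31%, at an unadjusted p under 0.05. The low-metastatic mean was the higher for all 7 member probes with a fit, and for all 6 probes of 5 genes once Stc2, chosen for this difference, is set aside. Over all 13741 probes the median difference was 0, and the share with a higher low-metastatic mean was not counted. Psat1 differed by −1.49 ± 0.46 on the brighter probe, a 2.81-fold difference, and by −0.98 ± 0.76 on the dimmer. With any 1 line left out the values ran from −1.93 to −1.07 for the brighter Psat1 probe and −1.75 to −0.19 for the dimmer. Atf4 differed by −0.29 ± 0.28, Herpud1 by −0.22 ± 0.18, Atf3 by −0.21 ± 0.37 and Asns by −0.13 ± 0.27. For Atf3 and Asns the sign turned without C5F, to 0.08 and 0.14, and for Atf3 also without L2, to 0.10. Both low-metastatic lines lay above both high-metastatic lines for 2 of the 6 probes without Stc2 (Herpud1 and the brighter Psat1 probe), where 19.2% of all such probes do. The reverse held for 0 of 6, where it does for 17.5%. The scaling of the arrays moved the first count to between 1 and 2. Nothing is read from these counts, since the class difference took part in the choice of the genes.

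The order of the lines was compared over the members without Stc2, whose spots in N1 and L2 were near background and have no order. Stc2 was brightest in C6, so with it included C5F was the brightest for 6 of 7 probes. Of the 6 probes of 5 genes measured in all 4 lines, C5F was the brightest for 6, against 23.0% of all such probes. L2 was the dimmest for 4 of the 6, Asns and Herpud1 being the exceptions, against 32.2%. With irregular spots kept, which adds Ddit3, Trib3, Psph and the dimmer Asns probe, C5F was the brightest for 8 of 10 probes and L2 the dimmest for 8 of 10, against 25.8% and 28.7%. The place of C5F depended on scaling. With arrays scaled to the median of their probes above background it was again the brightest for 6 of 6, but then also for 46.2% of all probes. With the deposited normalized intensity it was the brightest for 3 of 6 (both Psat1 probes and Asns), against 10.5%, while L2 was the dimmest for 5. The probes share arrays, and Psat1 counts for 2 of them, so they are not independent.

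By the same samples, the gene nearest to Stc2 in pattern among 2994 named genes was Adm2, which encodes the peptide hormone adrenomedullin 2. The root mean square difference of the mean-centred log2 signals over the 5 samples was 0.523. Adm2 read 3.18 in liver and 5.56, 6.72, 3.88 and 1.47 in C5F, C6, N1 and L2, being near background in liver and L2. Next came Cyp26a1, the retinoic acid hydroxylase, at 0.659, and Slc39a4, a zinc importer, at 0.833. Nearest to the brighter Psat1 probe were Calml4, Tmem107 and Dkc1, at 0.287 to 0.370, and nearest to Atf4 were Dtymk, Usp25 and Padi2, at 0.0562 to 0.0665. With 5 samples these distances only describe the pattern.

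**Figure D4:**
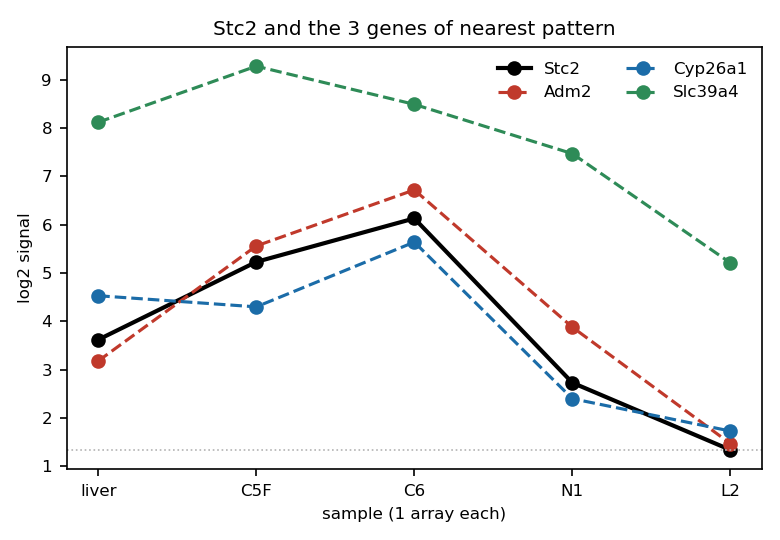
Log2 signal (vertical axis) of Stc2 and of the 3 genes nearest to it in pattern, in liver and the 4 lines (horizontal axis, 1 array each); the joining lines only guide the eye, and the dotted line is the floor. Stc2, Adm2 and Cyp26a1 are highest in C6, and all 4 genes are lower in N1 and L2 than in C5F and C6.

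Other genes of the pathway were described from 9 lists that leave out the members. They held 106 genes past the filter, of which 11 rose and 7 fell among 79 tested against liver, beside the array-wide shares given above. Without C5F, and likewise without C6, limma called 0 probes on the whole array, so every such count falls to 0 there. Without N1, and likewise without L2, the calls left were 1 transporter, 2 serine breakdown genes and 1 glycolytic gene, and 0 in the other 6 lists.

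Of other ATF4 targets, 2 of 14 tested genes rose, and 0 fell, with 5 and 4 at an unadjusted p under 0.05 (median −0.16, against 0.15 over all probes, and −0.59 to 0.26 over the alternatives). Eif4ebp1, a repressor of translation initiation, rose by 1.77 ± 0.29 (limma adjusted p = 0.041). Slc7a11, the cystine importer, was near background in liver and rose at least 32.9-fold (adjusted p = 0.0235), while its dimmer probe differed by 2.05. Aldh18a1, which makes the proline precursor, differed by 2.88 ± 0.43 without an L2 value, and Xpot, which exports transfer RNA, by 1.71 ± 0.36, neither passing (adjusted p = 0.0584 and 0.0585). Mthfd2, the mitochondrial folate enzyme, was at least 3.77-fold above liver and did not pass (adjusted p = 0.0986, no C6 value). Among amino acid transporters 1 of 5 rose, the cationic carrier Slc7a1, by 3.03 ± 0.30 (adjusted p = 0.0185).

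Of the cytosolic transfer RNA synthetases, 11 of 12 tested genes were higher on average in the lines. Their median was 1.08, against 0.15 over all probes, and the share of all probes with a higher mean in the lines was not counted. Farsa rose by 1.33 ± 0.19 (limma adjusted p = 0.0332) and Rars1 by 1.29 ± 0.23 (adjusted p = 0.0462), the 2 genes to pass. In the ER chaperone and unfolded protein response list, 1 of 9 tested genes fell with a median of −0.37 (−0.67 to −0.14 with any 1 line left out). The gene that fell was Syvn1, the ER ubiquitin ligase, by 1.15 ± 0.21 (adjusted p = 0.0485), with N1 and L2 near background. These values are from the brightest probe of each gene. The dimmer probe of Hyou1, an ER chaperone, also fell, by 1.82 (limma adjusted p = 0.0328). That of Calr differed by −1.16 and did not pass (adjusted p = 0.44). Dimmer probes of Atf6, Dnajb11 and Pdia4 differed by 0.25 to 0.81, whereas the brightest Atf6 probe differed by −0.92 ± 0.24. Manf, an ER stress-induced secreted protein, differed by −0.13 ± 0.21, and Hspa5, the chaperone BiP, had no usable spot in liver. In the eIF2 list 1 of 14 rose, Eif2s1, the eIF2 subunit that the stress kinases phosphorylate, by 2.06 ± 0.27 (adjusted p = 0.0296). The PERK gene Eif2ak3 differed by −0.60 ± 0.27 and the GCN2 gene Eif2ak4 by 0.22 ± 0.28, both without an N1 value, and neither passed. Another eIF2 kinase gene, Eif2ak1, differed from liver by −1.03 ± 0.20 and did not pass either (limma adjusted p = 0.0537). Between the classes Eif2ak1 differed by 0.81 ± 0.18 (high minus low). Its lowest high-metastatic line lay 0.71 above its highest low-metastatic line, the widest such gap of the list's genes measured in all 4 lines. On the brightest probes the mean difference was larger for Impact (2.41 ± 0.84) and Eif2ak3 (−0.95 ± 0.28), both without an N1 value. The kinase gene Eif2ak2 differed from liver by −0.60 ± 0.25 on its brighter probe and by 0.96 on its dimmer probe. Among partners and relatives of ATF4 and CHOP, 1 of 8 rose, Atf2, which was at least 1.45-fold brighter than a liver spot near background. The dimmer Atf2 probe differed by 1.53 and did not pass (limma adjusted p = 0.0704).

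Around serine, 5 of 6 tested genes of serine breakdown and glyoxylate metabolism fell (median −3.74). Sds, the serine dehydratase of gluconeogenesis, fell by 4.15 ± 0.25 (limma adjusted p = 0.00993), and Agxt2 fell by 3.34 ± 0.22. Gnmt, which methylates glycine, was at least 174-fold and Agxt, the peroxisomal alanine-glyoxylate transaminase, at least 53.7-fold dimmer than in liver. Of 6 tested glycolytic genes 4 rose (median 2.93), among them Pgam1, which draws on the same 3-phosphoglycerate as serine synthesis, by 2.42 ± 0.31 (adjusted p = 0.029). Pkm rose by 4.70 ± 0.29 (limma adjusted p = 0.01). Its dimmer probes differed by 4.33 (adjusted p = 0.0576) and 2.74 (adjusted p = 0.0278). Aldoa rose by 3.43 ± 0.55, and Eno1 rose at least 4.80-fold, its C5F spot being irregular. In the serine, glycine and one-carbon list 1 of 11 genes fell, the mitochondrial Aldh1l2 by 3.63 ± 0.24 (adjusted p = 0.0241, no C5F value, N1 and L2 near background), and 0 rose, with 3 and 2 at an unadjusted p under 0.05. These counts use the brightest probe of each gene. The dimmer Aldh1l2 probe differed by −2.46 and did not pass (limma adjusted p = 0.199). The brighter Cbs probe differed by −2.31 ± 3.46 (limma adjusted p = 0.657). It read 7.13 in C6 and 7.05 in N1, above liver at 6.53, and was at the floor in C5F and L2. The dimmer Cbs probe fell by 5.79 and passed (limma adjusted p = 0.0067). Shmt2, the mitochondrial enzyme that splits serine into glycine, differed by 0.05 ± 0.51.

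Between the classes limma called 0 of the 88 list genes fitted, with 7 at an unadjusted p under 0.05. The synthetases had a median of −0.40, against 0 over all probes, with 14 of 16 genes lower in the high-metastatic mean. The share of all probes lower in that mean was not counted. Both low-metastatic lines lay above both high-metastatic lines for 5 of 8 synthetases measured in all 4 lines, against 19.2% of all probes. Tars1, the threonyl synthetase, differed by −1.50 ± 0.38, with 9.98, 9.59, 8.69 and 7.87 in C5F, C6, N1 and L2. The serine, glycine and one-carbon list had a median of −0.66, which became −1.35 without N1, −0.41 without L2 and −0.18 with an offset of 50, with Shmt2 at −0.85 ± 0.46 and Mtr, methionine synthase, at −0.58 ± 0.19. The 3 scalings of the arrays kept both medians below 0, at −0.63 to −0.45 and at −0.76 to −0.57. The median over all probes also moved, to −0.12 when scaled to the median of probes above background. It was −0.08 when scaled to the 75th percentile and 0.04 with the deposited normalized intensity. Adm2 differed by −3.46 ± 1.03 and the glutamine carrier Slc38a1 by −2.02 ± 0.68, sizes that depend on L2 spots near background. Slc7a11 differed by 1.58 ± 0.58. Stc1, the relative of Stc2, differed by 1.54 ± 0.77, with 3.79, 4.24, 4.6 and 6.52 in C5F, C6, N1 and L2. Both high-metastatic lines thus lay above both low-metastatic lines for Stc1, as they do for 17.5% of all probes measured in all 4 lines. That order is opposite to the order of Stc2, which was chosen for its class difference, so nothing is read from the contrast.

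**Figure D5:**
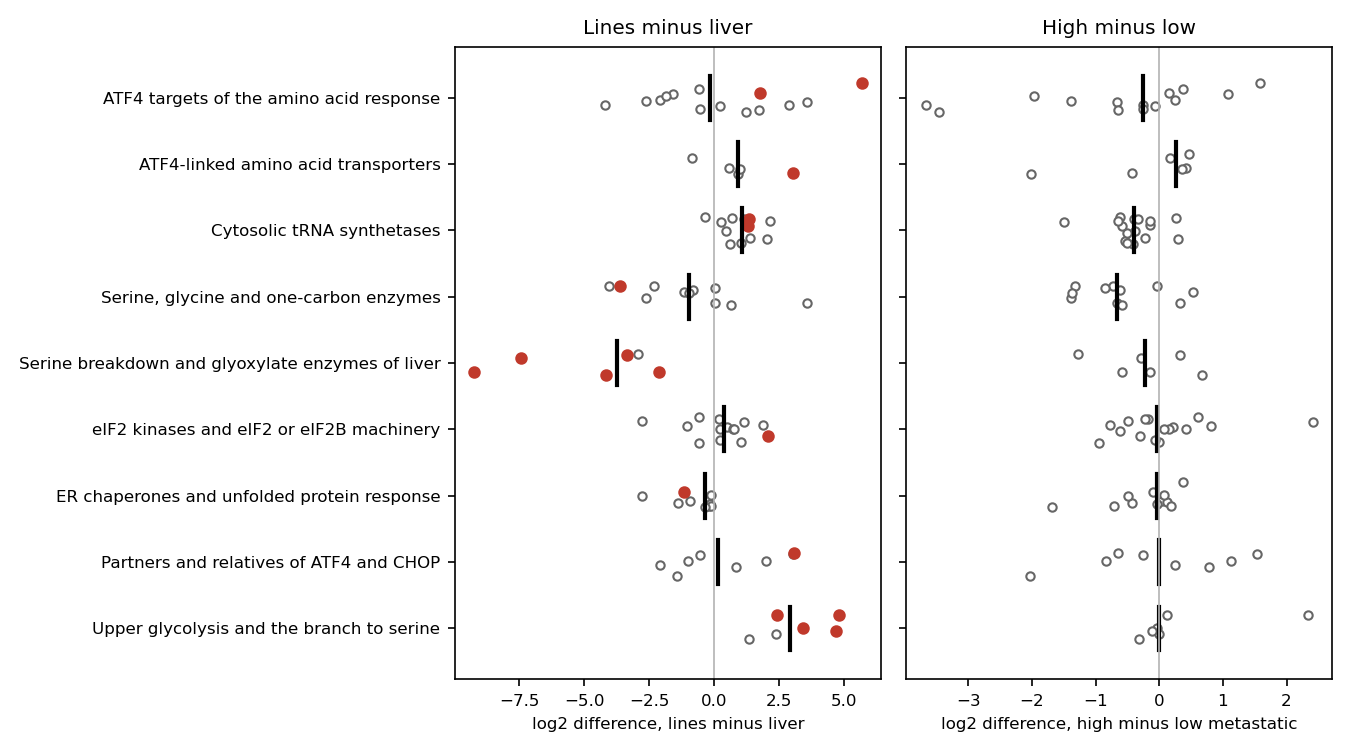
Log2 difference of the lines from liver (left) and of the high- from the low-metastatic lines (right) for each gene of the 9 lists that could be fitted; bars are list medians and red points passed the limma test. Serine breakdown genes lie to the left of 0 and glycolytic genes to the right against liver, and no list gene passed between the classes.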

How the data were processed

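RNA of 5 samples was measured on CodeLink Rat Whole Genome slides. The slides were quantified by the authors in CodeLink Expression Analysis, per the file headers. Each deposited file holds a raw intensity for every spot, with background already subtracted, as negative values show, and a normalized intensity, the raw intensity divided by the array median. The series matrix holds that same normalized intensity (largest difference 0).

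The raw intensity was used. Without the 1280 controls, any spot the authors called irregular, contaminated or masked was treated as missing, and arrays were quantile normalized (limma 3.58.1 in R 4.3.3, with statmod 1.5.0 for the robust alternative). The floor was 2.53, the median signal near background, and log2 followed. The 16377 probes kept were above background in liver or in 2 or more lines. Where a gene has several probes, the brightest stands for it in the lists.

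A single limma model of 3 groups (liver and the classes of lines) gave the mean of both classes minus liver and high minus low, with Benjamini-Hochberg adjustment over 11949 and 13741 probes, two-sided, at a threshold of 0.05. The procedure was tested on simulated data. The members, the gene lists and the rule for named genes were chosen with earlier results of these data known. The rule named all members, up to 4 genes per list in each direction past the threshold with the largest difference from liver, up to 3 per list with the widest class gap, and the 3 genes nearest in pattern to 3 members. Aldh18a1, Xpot, Mthfd2, Manf, Hspa5, Hyou1, Atf6, Calr, Dnajb11, Pdia4, Cbs, Impact, Eif2ak2, Eif2ak3 and Eif2ak4 were named outside it, after their values were seen. Some genes that the rule named are not described above. Probe symbols came from the platform annotation, updated by Entrez number through RefSeq (16724 of 16753 matched). "At least" folds set spots near background to the lowest signal called above background on that array (7.87 to 14.6).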

Additional observations from a re-analysis of the deposited data

How the results depend on the processing

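The number of probes called against liver (1077 higher, 1121 lower) depended on the arrays and settings: 605 were higher with an offset of 50 and 1804 with irregular spots kept, and with any 1 line left out there were 0 to 132 higher and 0 to 485 lower (0 in both directions without C5F and without C6, 114 and 476 without N1). The count between the classes was 0 under every alternative run. C5F was the brightest line for 3 of 7 member probes, Stc2 included, with the deposited normalized intensity, against 6. The counts without Stc2, the order with irregular spots kept, the share of all probes under each scaling and ERSE-II were chosen after seeing the data. Restricting the promoter window to the bases before the start gave 3.38% for CARE, 1.53% for TGACGTGN and 1.59% for TGACGTCA. Scaling to the median of probes above background moved the median of all probes against liver from 0.15 to 0.29. Herpud1 was past the threshold in 7 of 12 settings, the main one included, with adjusted p from 0.0185 to 0.0835 and always below liver. Stc2 could not be fitted without C5F or without C6, since it then failed the filter on dim probes. The cause of these shifts was not tested. No paired analysis was possible because the replicate numbers only follow the order of the samples and the labels carry none. Probes near background, such as Stc2 in N1 and L2, give only bounds.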
